A study of Vitis vinifera with 16 samples.

Results

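Heat stress transcription factors (Hsfs) were described here through 4 transcripts of the grape berry, A-3-like (XM_002277302.2, gene LOC100245950), A-8-like (XM_003631122.1, LOC100245838), A-4b-like (XM_002278001.2, LOC100250580) and C-1-like (XM_002280992.1, LOC100250904), out of 23984 transcripts in the tables. The members were taken by name from the factors that the study had listed for a correlation with terpene genes over these same samples, so that their course over stages, sites and vintages is not independent of how they came to be named. The berries were those of Muscat Blanc à Petits Grains, a white aromatic variety of Vitis vinifera, from vineyards of the Changli (CL) region in Hebei and the Gaotai (GT) region in Gansu. They were picked at 4 stages, pea-size (E-L31), véraison with the onset of colour and enlargement (E-L35), intermediate sugar (E-L36) and harvest (E-L38), in the vintages 2010 and 2011. This gave 16 samples, 1 for each stage, region and vintage, and so 8 groups with n = 2, the vintages, for each region at a stage. Over the whole season CL was the warmer and wetter site, and GT the cooler and drier site with more hours of sun. For berry development, the phase before véraison, the study gives more growing degree days in GT than in CL in both years. The same vines of each vineyard were sampled in both years, many vines were pooled for a sample, and the seeds were removed before RNA extraction. The GT vines were older than the CL vines, and vine age, soil and practice cannot be told apart from climate in any ratio of GT over CL. No source used here gives the temperature of the berries at picking.

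Hsfs bind heat shock elements in promoters, chiefly those of genes for chaperones, which keep other proteins folded. Class A members carry an activating motif and switch their targets on, whereas class B and class C members lack it, and the role of class C is the least known. In Arabidopsis, HsfA3 acts below the drought and heat factor DREB2A, class A4 factors take part in the response to reactive oxygen, and HsfA2 is strongly induced by heat and sustains tolerance. The question for the berry was whether these transcripts followed development, the site or the vintage.

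Library totals ran from 3798921 to 22917077 counts. Summed over libraries, a sample held between 3798921 and 26627006 counts, and the median was 19320041 in CL and 11799070 in GT. All 4 members had reads in all 16 samples, and 100% of their reads were mapped uniquely. The counts behind them were small for A-3-like (8 to 179 per sample) and C-1-like (5 to 299) and larger for A-4b-like (58 to 631) and A-8-like (73 to 1137). Levels are given in RPKM, the reads of a transcript scaled to its length and to the mapped total of the library. Ratios are log2 ratios from edgeR's quasi-likelihood test on TMM-scaled counts, with Benjamini-Hochberg adjustment over the 19026 transcripts tested. A call needed an adjusted p no higher than 0.05 and, except for trends, a log2 ratio of 1 or more in either direction. In tests of stage and region the vintages served as replicates, so that p-values measure the spread between years. In tests of the vintage the year was a fitted term, and p-values measure how the year ratio varied over groups of stage and region. A year had no replicate, so that those p-values do not reach beyond these 2 years. RNA was from whole berries, in which fewer cells that use a gene and less of its RNA per cell cannot be told apart.

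A-8-like and A-4b-like were the more abundant members, with means of 12.0 and 11.3 RPKM over the 16 samples, followed by C-1-like with 3.72 and A-3-like with 1.40. The ranges of A-8-like (5.35 to 31.9 RPKM) and A-4b-like (4.47 to 20.4 RPKM) overlapped in part, and those of C-1-like (0.294 to 15.7 RPKM) and A-3-like (0.235 to 6.11 RPKM) did as well. C-1-like spanned 53.6-fold between its lowest and highest sample and A-3-like 26.0-fold, against 5.96-fold for A-8-like and 4.56-fold for A-4b-like. The SD of log2 CPM over the samples placed C-1-like at the 91.4th percentile of the transcripts tested, A-3-like at the 78.4th, A-8-like at the 52.9th and A-4b-like at the 44.6th.

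**Figure D1:**
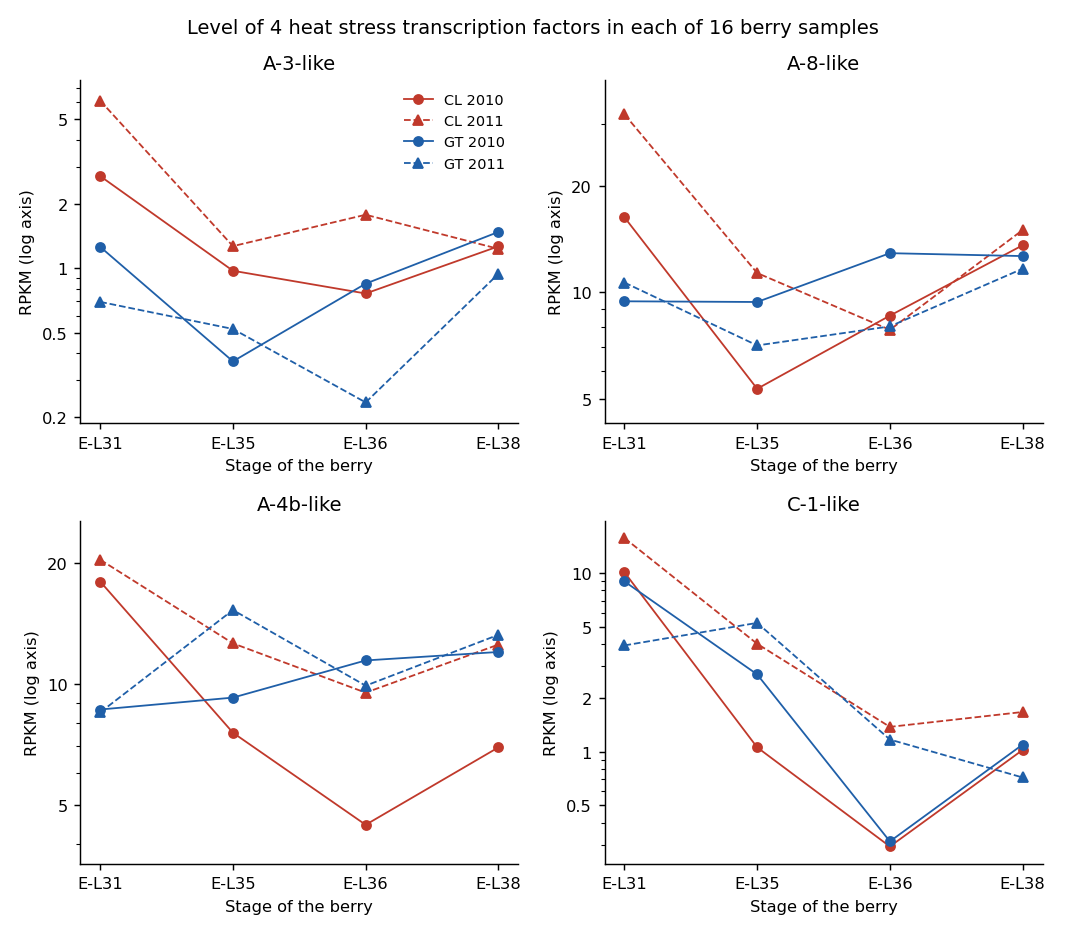
RPKM on a log axis (a different range in each panel) of the 4 factors in each sample against the stage, with CL in red, GT in blue, 2010 as circles and 2011 as triangles, and no error bars because each point is 1 sample. At E-L31 both red points lie above both blue points in each panel, and C-1-like goes from 3.94 to 15.7 RPKM at E-L31 to 0.716 to 1.67 RPKM at E-L38.

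A-3-like, annotated after the HsfA3 type, had its highest levels in pea-size berries of CL. In CL it had 2.71, 0.974, 0.762 and 1.27 RPKM over the 4 stages of 2010, from pea-size to harvest, and 6.11, 1.27, 1.78 and 1.23 RPKM in the same order in 2011. In GT it had 1.26, 0.366, 0.847 and 1.48 RPKM in 2010, and 0.696, 0.519, 0.235 and 0.942 RPKM in 2011. Both E-L31 samples of CL were thus above the other 14 samples. The lowest value, that of GT at E-L36 in 2011, rested on 9 reads, with an exact Poisson interval of 0.107 to 0.446 RPKM (95%, counting error only). That interval did not reach the level of the CL sample of the same stage and vintage, 1.78 RPKM (0.975 to 2.99, from 14 reads).

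A-8-like encodes a class A factor that stood at a moderate level throughout. Its CL samples had 16.3, 5.35, 8.60 and 13.6 RPKM over the stages of 2010 and 31.9, 11.3, 7.84 and 15.0 RPKM over those of 2011. Its GT samples had 9.44, 9.40, 12.9 and 12.7 RPKM in 2010 and 10.7, 7.09, 8.02 and 11.7 RPKM in 2011. In CL the samples of E-L35 and E-L36 were below those of E-L31 and E-L38 in both years, whereas the GT samples stayed between 7.09 and 12.9 RPKM. The harvest samples of the regions overlapped by no value in RPKM, 13.6 and 15.0 against 12.7 and 11.7, but did overlap after TMM scaling. The share of all transcripts without overlap in RPKM was not counted, and in TMM-scaled CPM 23.4% were lower in GT without overlap at harvest. The counting intervals of the 2010 harvest samples overlapped, with 12.8 to 15.1 RPKM in CL and 11.4 to 14.1 in GT (libraries summed).

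A-4b-like, a class A4 factor, had its highest levels of CL at E-L31. In TMM-scaled CPM later samples came close to these. The E-L31 samples of CL had 24.62 in 2010 and 29.88 in 2011, against 22.82 in CL and 24.65 in GT at harvest in 2011. In CL it had 18.0, 7.57, 4.47 and 6.96 RPKM in 2010 and 20.4, 12.6, 9.53 and 12.5 RPKM in 2011. In GT it had 8.65, 9.26, 11.5 and 12.0 RPKM in 2010 and 8.51, 15.3, 9.91 and 13.3 RPKM in 2011. The E-L31 samples were the highest of CL and the lowest of GT in both years, with means of 19.2 ± 1.69 and 8.58 ± 0.0992 RPKM (SD, n = 2).

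C-1-like, the only class C member, was a transcript of the young berry. Its CL samples had 10.1, 1.06, 0.294 and 1.02 RPKM in 2010 and 15.7, 4.02, 1.38 and 1.67 RPKM in 2011. Its GT samples had 8.99, 2.71, 0.314 and 1.09 RPKM in 2010 and 3.94, 5.27, 1.17 and 0.716 RPKM in 2011. In CL the véraison samples were below the pea-size samples in both years, while in GT in 2011 the counting intervals of the véraison sample (4.03 to 6.87 RPKM, libraries summed) and of the pea-size sample (2.86 to 5.29 RPKM) overlapped. From E-L36 on, no sample exceeded 1.67 RPKM.

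Over the stages in order, C-1-like fell by 0.97 on the log2 scale per stage step (SE 0.19, adjusted p = 0.00196, edgeR's quasi-likelihood test). It was the only 1 of the 4 members called for a trend, beside 26.7% of all transcripts that fell and 23.1% that rose. The trends of A-8-like (0.08, SE 0.08), A-4b-like (0.05, SE 0.08) and A-3-like (-0.05, SE 0.14) were not called, with adjusted p-values of 0.424, 0.645 and 0.807. The call of C-1-like held in all 10 other settings tried and without each of the 16 samples in turn, with trends from -1.12 to -0.79 and adjusted p-values of 1.8e-06 to 0.0117. Of the 223 tested transcripts in the study's list of transcription factors, 130 fell, 14 rose and the median trend was -0.44, against 0.00 over all transcripts.

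Between neighbouring stages, 0 of the 4 members passed edgeR's test, against 4.15% of all transcripts for E-L35 over E-L31, 0.436% for E-L36 over E-L35 and 0.725% for E-L38 over E-L36. At an unadjusted p under 0.05, 3 members had a lower level at véraison than in pea-size berries, against 27.6% of all transcripts in either direction. These were A-3-like (-1.28, SE 0.45, adjusted p = 0.103), C-1-like (-1.26, SE 0.55, adjusted p = 0.171) and A-8-like (-0.69, SE 0.27, adjusted p = 0.127), and the median of the 4 members was -0.97 against -0.01 over all transcripts. From E-L35 to E-L36, C-1-like had a log2 ratio of -1.82 (SE 0.62, adjusted p = 0.145). DESeq2 called that step, as it did 4.34% of all transcripts (adjusted p = 0.0462, with 0.0430 to 0.478 across the alternatives), on 5, 7, 6 and 29 reads in the E-L36 samples. With each library as its own value, A-3-like and C-1-like were called at E-L35 over E-L31, as were 11.2% of all transcripts, but libraries of 1 vintage then count as replicates.

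Within CL, both E-L31 samples were above all 6 later samples in TMM-scaled CPM for 3 of the 4 members (A-3-like, A-4b-like and C-1-like), which was so for 21.8% of all transcripts. By RPKM it was so for 4 of the 4 and for 40.2% of all transcripts. Within GT it held for 0 of the 4 on both scales, against 9.65% of all transcripts in TMM-scaled CPM. The difference of the trends, GT minus CL, was 0.70 for A-3-like (SE 0.28), 0.50 for A-4b-like (SE 0.15), 0.37 for A-8-like (SE 0.17) and 0.10 for C-1-like (SE 0.37). All 4 values were above 0, which was so for 44.2% of all transcripts. The first 3 had an unadjusted p under 0.05, against 10.7% of all transcripts. None of the 4 was called by edgeR's quasi-likelihood test, with adjusted p-values of 0.413, 0.317, 0.467 and 0.964, and 7 of the 19026 transcripts (0.0368%) were. The course over stages was therefore not shown to differ between the sites for any member.

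**Figure D2:**
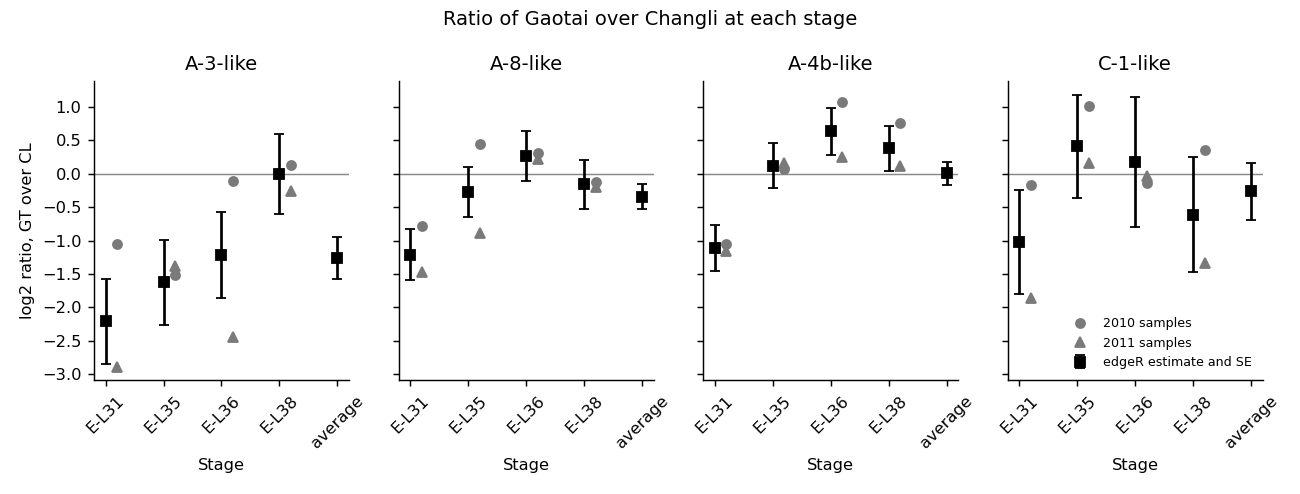
log2 ratio of GT over CL for each factor, stage by stage and as their average, with black squares and bars for edgeR's estimate and its SE, and grey points for the ratio of the GT and CL samples of 1 vintage in log2 CPM. All grey points at E-L31 lie below 0, and A-3-like is below 0 in 7 of its 8 pairs.

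Between the sites, edgeR's ratio of GT over CL was lowest in pea-size berries for each member. The share of all transcripts with this was not counted, so that it is no result about the members. It did not hold for A-3-like in 2010 alone, with -1.05 at E-L31 and -1.52 at E-L35 in log2 CPM. No member was called at E-L31, and no difference of a member's ratio between stages passed the test (lowest adjusted p = 0.326, edgeR's quasi-likelihood test). At E-L31 both GT samples were below both CL samples for 4 of the 4 members, which was the case for 21.1% of all transcripts and for 37.2% of the tested factors on the study's list. This count is not independent of the choice of the members, since they were listed for their correlation with terpene transcripts over these samples, and the one paired with 3 of them had 4.88 RPKM in CL and 0.190 in GT at this stage. A-3-like had 0.978 ± 0.399 RPKM in GT against 4.41 ± 2.41 in CL (SD, n = 2 each). A-8-like had 10.1 ± 0.865 RPKM in GT (SD, n = 2) against 16.3 and 31.9 RPKM in the CL samples. C-1-like had 6.47 ± 3.58 RPKM in GT against 12.9 ± 3.98 in CL, and its GT and CL samples of 2010, with 8.99 and 10.1 RPKM, lay within each other's counting intervals. The log2 ratios of GT over CL were -2.21 for A-3-like (SE 0.64, adjusted p = 0.204), -1.21 for A-8-like (SE 0.38, adjusted p = 0.220), -1.11 for A-4b-like (SE 0.35, adjusted p = 0.218) and -1.03 for C-1-like (SE 0.78, adjusted p = 0.593) by edgeR's quasi-likelihood test. Their median was -1.16, against 0.00 over all transcripts and -0.39 over the study's factors. Thus 0 of the 4 members were called, as were 0.0% of the transcripts tested at this stage, where 13.9% had an unadjusted p under 0.05. DESeq2, which called 2.38% of all transcripts at this stage, called A-3-like (adjusted p = 0.0458, with 0.0458 to 0.679 across the alternatives).

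Averaged over the 4 stages with equal weight, A-3-like was the member with the ratio farthest from 0. Whether berries of 1 stage were equally far in development at both sites was not tested. In TMM-scaled CPM, GT was lower than CL in 7 of its 8 pairs of stage and vintage, as in 10.6% of all transcripts (7 or 8 pairs), and the exception was E-L38 in 2010. By RPKM it was lower in 6 of 8, since the pair of E-L36 in 2010 had 0.847 RPKM in GT and 0.762 in CL. Its GT over CL ratio was -1.27 on the log2 scale (SE 0.31), a 2.41-fold lower estimate in GT, with an unadjusted p of 0.00197 and an adjusted p of 0.0983 by edgeR's quasi-likelihood test. It was therefore not called, as 0 of the 4 members were, against 0.0788% of all transcripts. The call depended on the tool and the samples, since the adjusted p was 0.00984 by DESeq2, 0.00823 with each library as its own value and 0.0410 without the GT sample of E-L31 in 2010, its lowest count, within 0.00823 to 0.247 across the alternatives. These fits called 1.84%, 2.33% and 2.46% of all transcripts. The ratio of A-3-like was below 0 in all alternatives, from -1.52 to -0.63, and nearest to 0 for log2(RPKM + 1), where the added 1 was about as large as the level itself.

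By stage, the ratio of A-3-like was -1.63 at E-L35 (SE 0.64), -1.22 at E-L36 (SE 0.64) and -0.01 at E-L38 (SE 0.60), and in TMM-scaled CPM its GT samples were below its CL samples without overlap at E-L35 and E-L36, as for 26.6% and 19.2% of all transcripts. By RPKM the samples of E-L36 overlapped. At E-L35, E-L36 and E-L38, 0 of the 4 members were called by edgeR's quasi-likelihood test, against 0.0%, 0.021% and 0.00526% of all transcripts. With each library as its own value, 1 member was called at E-L35 (A-3-like, adjusted p = 0.0394, with 0.0394 to 0.821 across the alternatives), as were 3.56% of all transcripts. At E-L36 the vintages differed widely, with a log2 ratio of -0.11 in 2010 and -2.45 in 2011. The gap at E-L38 minus that at E-L31 was 2.20 on the log2 scale (SE 0.88, adjusted p = 0.393), so that a narrowing of the gap towards harvest was not shown by the test.

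The other members had averages over the stages nearer to 0. On the log2 scale, GT over CL was -0.34 for A-8-like (SE 0.19, adjusted p = 0.341), -0.26 for C-1-like (SE 0.43, adjusted p = 0.770) and 0.01 for A-4b-like (SE 0.17, adjusted p = 0.999). For A-4b-like the ratio was below 0 in pea-size berries and above 0 afterwards. After the -1.11 at E-L31 it was 0.12 at E-L35 (SE 0.34), 0.64 at E-L36 (SE 0.35) and 0.38 at E-L38 (SE 0.34). GT was the higher region in all 6 pairs from E-L35 on, and the share of all transcripts with this was not counted. At E-L36 its GT samples, with 11.5 and 9.91 RPKM, were above its CL samples, with 4.47 and 9.53 RPKM, without overlap. The same was so in TMM-scaled CPM, as for 20.9% of all transcripts on that scale. The counting intervals of the 2011 samples overlapped, with 8.97 to 10.9 RPKM in GT and 7.54 to 11.9 in CL. For C-1-like the ratios after E-L31 were 0.41, 0.18 and -0.61, with SEs of 0.78, 0.97 and 0.87.

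**Figure D3:**
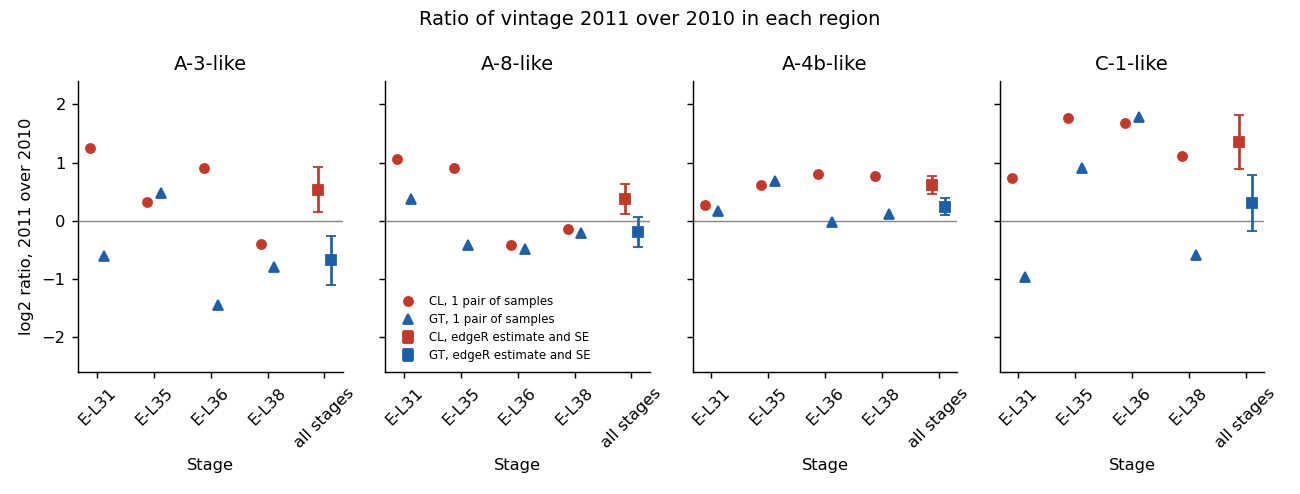
log2 ratio of 2011 over 2010 for each factor in CL (red) and GT (blue), with circles and triangles for the pair of samples of 1 stage in log2 CPM and squares with bars for edgeR's estimate over the 4 stages and its SE. The CL square lies above the GT square in each panel, and the 4 CL circles of A-4b-like lie between 0.28 and 0.81.

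The vintages gave another contrast, by growing degree days over the whole season. The later vintage had more of them than the earlier in CL and fewer in GT, although the order varied between phases of the season. The later season was also longer in CL and shorter in GT. These totals thus do not show which year was warmer per day. In CL, 2011 was higher than 2010 at all 4 stages for 2 of the 4 members, A-4b-like and C-1-like, as for 7.45% of all transcripts. The log2 ratio of 2011 over 2010 in CL was 0.61 for A-4b-like (SE 0.15), 1.35 for C-1-like (SE 0.47), 0.54 for A-3-like (SE 0.38) and 0.38 for A-8-like (SE 0.26). In GT it was 0.25 for A-4b-like (SE 0.15), 0.31 for C-1-like (SE 0.48), -0.68 for A-3-like (SE 0.43) and -0.20 for A-8-like (SE 0.26). In CL the ratios of A-4b-like and C-1-like had unadjusted p-values of 0.00286 and 0.0176 by edgeR's quasi-likelihood test, against 5.47% of all transcripts under 0.05, and adjusted p-values of 0.788 and 0.854. None of the ratios in either region was called, as 0.0% of all transcripts were.

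The difference of these ratios, GT minus CL, was -1.22 for A-3-like (SE 0.57), -1.05 for C-1-like (SE 0.67), -0.57 for A-8-like (SE 0.37) and -0.37 for A-4b-like (SE 0.21). All 4 were below 0, as for 51.9% of all transcripts, and the adjusted p was 0.918 for each by edgeR's quasi-likelihood test. With 1 shift shared by both regions, the ratio of 2011 over 2010 was 0.43 for A-4b-like (SE 0.12, unadjusted p = 0.0043, adjusted p = 0.487), which was higher in 2011 in 7 of 8 pairs in TMM-scaled CPM and in 6 of 8 by RPKM. For C-1-like it was 0.85 (SE 0.36, adjusted p = 0.676), higher in 2011 in 6 of 8 pairs on both scales. The shares of all transcripts with such pair counts were not worked out. For A-8-like and A-3-like it was 0.09 and -0.0045, with SEs of 0.20 and 0.29. Of all transcripts, 0 were called for this shift by edgeR, against 7.09% at an unadjusted p under 0.05.

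**Figure D4:**
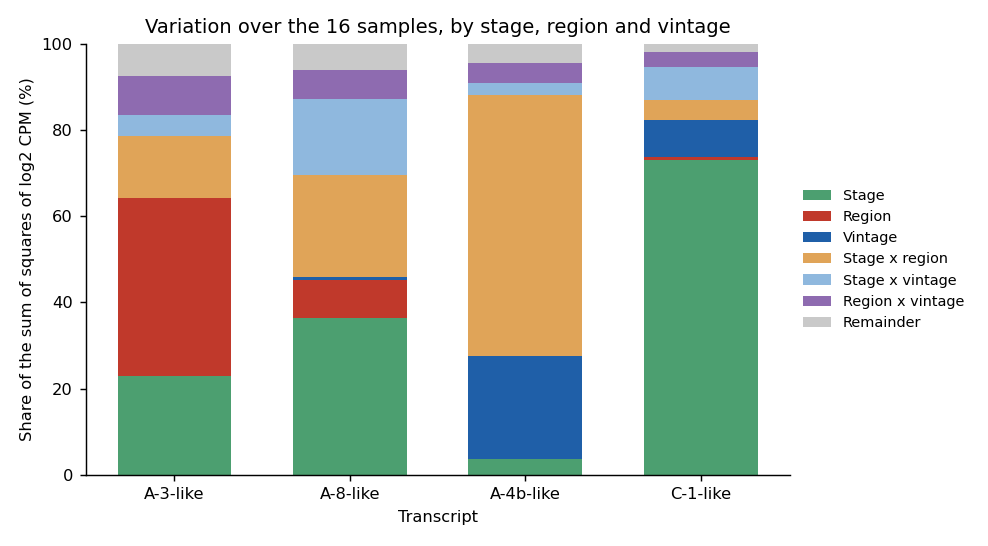
Share of the sum of squares of log2 CPM over the 16 samples (percent, stacked to 100) that goes to the stage, the region, the vintage, each pair of these and the remainder, 1 bar per factor and no error bars. The stage takes 73.0% for C-1-like, the region 41.3% for A-3-like, and stage by region 60.4% for A-4b-like.

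The 4 members divided their variation differently. In the balanced layout of stage, region and vintage, the stage took 73.0% of the sum of squares of C-1-like and 36.5% of that of A-8-like, against a median of 45.1% over all transcripts, with 3.68% for A-4b-like. The region took 41.3% for A-3-like, at the 98.4th percentile of all transcripts, whose median was 4.46%, but 8.77% for A-8-like and below 1% for both others. For A-4b-like the interaction of stage and region took 60.4%, at the 99.6th percentile, and the vintage 23.9%, at the 97.6th, against medians of 11.4% and 2.06%. A-8-like had 23.6% in the interaction of stage and region and 17.6% in that of stage and vintage. These shares are descriptions without a test.

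The libraries of 1 sample, which exist at E-L35 and E-L38 only, gave a measure of the error within a vintage. At E-L35 the levels of the 2 libraries differed beyond counting error in 1 of the 16 pairs of a member and a sample. Of the tested transcripts with 10 or more reads in the 2 libraries, 11.1 to 49.7% did so, depending on the sample. At E-L38 the libraries of a member differed in this way in 4 of 16 pairs, against 21.9 to 44.3% of such transcripts. The members were counted without that limit of reads, so that the shares are not quite alike. Some pairs of A-3-like and C-1-like rested on few reads, such as 3 and 6 for A-3-like in GT at E-L35 in 2011. With so few, only a wide gap could show, so that the low count of members is no sign of better agreement. The widest pair was C-1-like in CL at E-L38 in 2010, with 0.347 and 1.70 RPKM on 5 and 12 reads. A-4b-like in GT at E-L38 in 2010 had 16.2 and 7.84 RPKM, a 2.07-fold gap within a sample whose mean, 12.0 RPKM, was compared with CL samples of 6.96 and 12.5 RPKM. At E-L31 no second library was there to measure this error.

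The members did not share 1 pattern. Over the 16 samples, Pearson's r of log2 CPM between members ran from 0.04 (A-8-like and C-1-like) to 0.64 (A-3-like and A-8-like), with a median of 0.30 over the 6 pairs, as a description of samples that share stages and libraries. The transcripts most like each member, the 3 with the highest r, were mostly ones with no name in the sources used here. For A-3-like they included XM_002282742.2, annotated as nuclear transcription factor Y subunit A-1-like (r = 0.85), and for A-8-like XM_002268364.1, annotated as bHLH47-like (r = 0.85). The nearest to C-1-like reached r = 0.94 and the nearest to A-4b-like r = 0.86.

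A pair of other Hsf transcripts carried a name. A-4a-like (XM_002267135.2), which the study also lists, had 8.75 to 22.2 RPKM and rose by 0.27 on the log2 scale per stage step (SE 0.07, adjusted p = 0.00571, edgeR's quasi-likelihood test). That call was lost with library totals (0.13, adjusted p = 0.123), which moved the median trend of all transcripts by -0.15, and with limma on log2(RPKM + 1) (0.13, adjusted p = 0.0901) and on log2(RPKM + 0.1) (0.14, adjusted p = 0.0892). Its log2 ratio of GT over CL averaged 0.08 (SE 0.15). At E-L31 its GT samples (8.75 and 15.1 RPKM) lay on either side of its CL samples (11.9 and 13.2 RPKM), whereas those of A-4b-like did not overlap, and the difference between the A4 transcripts was not tested.

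HsfA2 (XM_002278673.1), the heat-induced member of the family in Arabidopsis, was named by a synonym in the reference and added here after its values were seen. It had the widest span of these transcripts, 157-fold. In CL it had 20.1, 22.4, 40.9 and 1.37 RPKM over the stages of 2010 and 22.8, 4.90, 1.65 and 1.90 RPKM over those of 2011. In GT it had 53.2, 1.67, 0.757 and 3.29 RPKM in 2010 and 1.43, 1.11, 0.338 and 3.92 RPKM in 2011. The E-L31 samples of GT differed by a log2 ratio of -4.92 (2011 over 2010), on 287 and 21 reads, and the CL samples of that stage by 0.28. GT was below CL without overlap at E-L35 and E-L36, with log2 ratios of -3.51 (SE 1.50, adjusted p = 0.411) and -5.51 (SE 1.66, adjusted p = 0.381) by edgeR's quasi-likelihood test. It was above CL without overlap at E-L38, with a ratio of 1.22 (SE 1.45). In TMM-scaled CPM the same was so for 26.6%, 19.2% and 18.3% of all transcripts at E-L35, E-L36 and E-L38. DESeq2 called the ratio at E-L36 (adjusted p = 0.0239), as it did 0.72% of all transcripts. The average over stages was -1.88 (SE 0.72, adjusted p = 0.198), and without the GT sample of E-L31 in 2010 it was -2.89 and called (adjusted p = 0.0292, when 2.46% of all transcripts were). The trend over the stages was called, at -0.89 per step (SE 0.32, adjusted p = 0.0382), but the call was lost without any 1 of 11 of the 16 samples, and without that same GT sample the trend was -0.29 (adjusted p = 0.440). Its r with the 4 members ran from -0.30 (A-4b-like) to 0.48 (A-3-like).

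**Figure D5:**
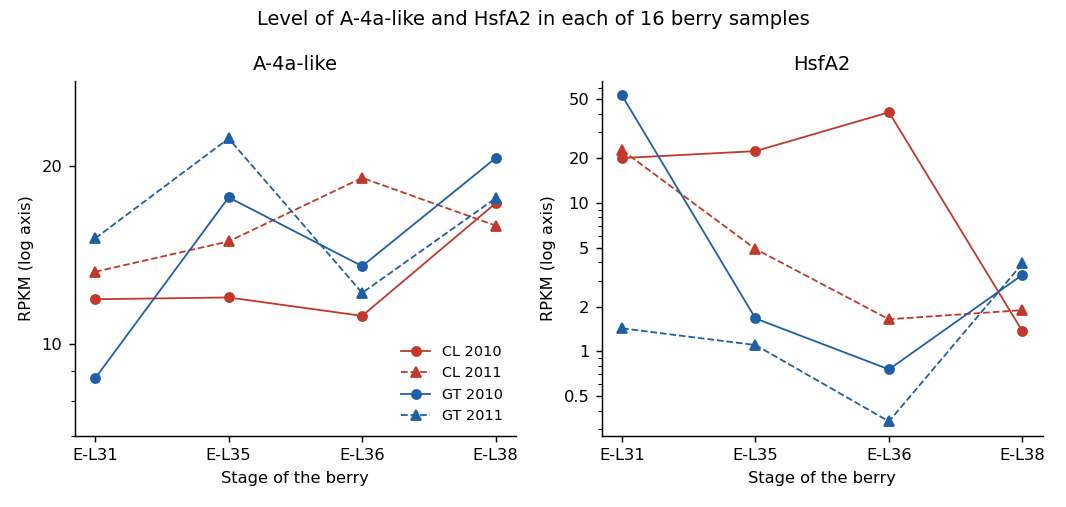
RPKM on a log axis of A-4a-like and HsfA2 in each of the 16 samples against the stage, with CL in red, GT in blue, 2010 as circles and 2011 as triangles. A-4a-like stays between 8.75 and 22.2 RPKM, and HsfA2 goes from 53.2 RPKM (GT, E-L31, 2010) to 0.338 RPKM (GT, E-L36, 2011).

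The terpene transcripts that the study paired with members and that the tables hold were a pair. XM_002283147.2, annotated as a 3-hydroxy-3-methylglutaryl-coenzyme A reductase of the mevalonate pathway and paired with A-4b-like and A-8-like, had 69.4 ± 17.8 RPKM in pea-size berries of CL and 32.6 ± 1.95 in those of GT, with 20.6 ± 6.43 and 40.8 ± 4.29 RPKM at véraison (SD, n = 2 each). XM_003635234.1, annotated as nerolidol synthase 1-like and paired with A-3-like, A-8-like and C-1-like, had 4.88 ± 3.19 RPKM in pea-size berries of CL, 0.190 ± 0.185 in those of GT, and no read from E-L36 on. Only 12.5% of its reads were unique, so that its level is uncertain.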

How the data were processed

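Berries were deseeded and strand-specific RNA libraries were sequenced by the authors, 1 per sample at E-L31 and E-L36 and 2 at E-L35 and E-L38. The authors mapped trimmed reads to RefSeq transcripts with CLC Genomics Workbench and divided multi-hit reads by the unique reads of the transcripts they hit. The deposited counts of all assigned and of unique reads are whole numbers without normalization. The deposited RPKM was scaled by the authors to transcript length and library total. The deposited transcript length is an other value, in bases. The labels and tables do not say which repeat of a vineyard a library came from.

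Counts of libraries of 1 sample were summed and RPKM averaged. The 19026 transcripts that reached 10 counts in 2 or more samples were fitted in R 4.3.3 with edgeR 4.0.16 (TMM factors 0.751 to 1.29, common dispersion 0.103) in 8 groups of stage and region. Vintage was tested as a term beside the groups, shared or within each region. Alternatives used RLE scaling, library totals, DESeq2 1.42.0, limma 3.58.1 on log2(RPKM + 1) and log2(RPKM + 0.1), no filter, unique reads, each library as its own value, the vintage as a replicate block, an additive model, the samples of 1 stage alone, and each of the 16 samples left out. Counting intervals are exact Poisson intervals at 95%. The script was tested on simulated data.

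The members and lists were chosen with earlier results of these data known. The transcripts named were the members, A-4a-like, the 3 transcripts most like each member and the terpene transcripts the study paired with a member, and HsfA2 was added. Of the transcripts, 14054 matched the reference table (assembly ASM3070453v1), 56 of them with a symbol other than a locus number, so that the lists of other Hsfs (2 matched), chaperones (0), co-regulators (0) and tissue markers (0) were void and the tissue was not checked by markers. Replicate numbers stand for the vintages given in the titles, which pair samples of 1 year across groups. The deviations of same-year samples in different groups correlated at -0.30 to 0.35 (median 0.002, 28 pairs of groups).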

Additional observations from a re-analysis of the deposited data

Results flagged for a closer look

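In 3 members the pairs of GT and CL samples, in TMM-scaled log2 CPM, had opposite signs at different stages in both vintages. The share of all transcripts with such a change of sign was not counted, so that this count is a description and no result about the members. For A-4b-like, GT was below CL in both pairs at E-L31 and above it in both pairs at each later stage. The difference of its log2 ratio from that at E-L31 was 1.23 at véraison, 1.75 at E-L36 and 1.50 at harvest, with adjusted p-values of 0.619, 0.335 and 0.326 by edgeR's quasi-likelihood test, so that none was called. For A-8-like, GT was below CL at E-L31 and E-L38 and above it at E-L36, with differences of 1.48 for E-L36 minus E-L31 and -0.42 for E-L38 minus E-L36 (adjusted p = 0.441 and 0.873). For C-1-like, GT was above CL at E-L35 and below it at E-L31 and E-L36 by pairs, with differences of 1.44 for E-L35 minus E-L31 and -0.23 for E-L36 minus E-L35 (adjusted p = 0.761 and 1.0). At E-L36 the C-1-like pairs differed by only -0.14 and -0.04, edgeR's own ratio of GT over CL was above 0 there (0.18, SE 0.97), and by RPKM the 2010 pair was above 0 as well, so that its sign at this stage is not settled. Groups of n = 2 are too small for a test of single samples far from their group.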

How the results depend on the processing

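C-1-like was the 1 member called for a trend in every setting, and 1341 of 1423 member values kept their direction and side of the threshold. With the vintage as a replicate block, the trend of C-1-like was -0.98 (adjusted p = 0.00101) and the average GT over CL ratio of A-3-like -1.27 (adjusted p = 0.109), by edgeR's quasi-likelihood test. The block changed no call of a member. DESeq2 called 1 member at E-L31 and 1 in the region average (A-3-like both times) and 1 for E-L36 over E-L35 (C-1-like), beside 2.38%, 1.84% and 4.34% of all transcripts. Each library as its own value called 2 for E-L35 over E-L31 (A-3-like and C-1-like), 1 for E-L36 over E-L35 (C-1-like), and A-3-like between the sites, 1 at E-L35 and 1 in the average, beside 11.2%, 5.40%, 3.56% and 2.33% of all transcripts. Limma on log2(RPKM + 1) called 1 for E-L35 over E-L31 (C-1-like, adjusted p = 0.0385), beside 6.67% of all transcripts. Without the GT sample of E-L31 in 2010, the members called in the region average numbered 1 (2.46% of all transcripts), in a range of 0 to 1 over the samples left out. For the other Hsfs, the trend of A-4a-like lost its call in 3 settings (library totals and both limma fits), and that of HsfA2 in 3 (both limma fits, -0.70 and -0.82, and the additive model, -0.59). Each library as its own value called HsfA2 between the sites at E-L35 and on average. The cause of these changes was not tested.

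Signs changed in 22 values under another setting and in 50 without 1 sample, all of them uncalled and of the members. The trends of A-8-like and A-4b-like were -0.063 and -0.10 with library totals, -0.041 and -0.10 with limma on log2(RPKM + 1), and -0.040 and -0.11 on log2(RPKM + 0.1). With library totals the median trend of all transcripts moved by -0.15. For A-4b-like, E-L35 over E-L31 was 0.012 with each library as its own value and E-L36 over E-L35 was 0.039 in the additive model. On log2(RPKM + 1) and log2(RPKM + 0.1), GT over CL was 0.051 and 0.066 for A-8-like at E-L35 and -0.055 and -0.074 for C-1-like at E-L36. For A-3-like at E-L38 it was 0.012 with RLE scaling, 0.013 with DESeq2, 0.0066 with unique reads, 0.019 with each library as its own value and 0.018 with the samples of that stage alone. The vintage ratio of A-3-like was 0.012 with library totals, 0.073 and 0.016 with limma (RPKM + 1 and RPKM + 0.1), 0.00057 with unique reads and 0.022 in the additive model.

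Without 1 sample at a time, the trend ran from -0.12 to 0.069 for A-3-like and from -0.020 to 0.095 for A-4b-like. E-L35 over E-L31 ran from -0.23 to 0.12 for A-4b-like, and E-L36 over E-L35 from -0.060 to 0.76 for A-3-like and from -0.25 to 0.17 for A-4b-like. The region average ran from -0.088 to 0.12 for A-4b-like and from -0.61 to 0.027 for C-1-like. GT over CL at E-L35 ran from -0.66 to 0.24 for A-8-like, from -0.26 to 0.44 for A-4b-like and from -0.25 to 1.59 for C-1-like. At E-L36 it ran from -1.21 to 1.22 for C-1-like, and at E-L38 from -0.50 to 0.34 for A-3-like and from -1.08 to 0.12 for C-1-like. The average of A-4a-like between the sites ran from -0.072 to 0.17. The difference of the trends ran from -0.037 to 0.32 for C-1-like. The vintage ratio ran from -0.23 to 0.21 for A-3-like and from -0.055 to 0.18 for A-8-like, and that within GT from -0.17 to 0.83 for C-1-like.

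Depth limits A-3-like and C-1-like, with fewer than 10 reads in single samples.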
